A study of Mus musculus with 13 samples.

Results

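The miR-17-92 and miR-106b-25 clusters are 2 paralogous groups of miRNA genes, each transcribed as a single precursor that is cut into several hairpins. Their 10 members counted here were chosen by name: 6 mature miRNAs of miR-17-92 (miR-17-5p, miR-18a-5p, miR-19a-3p, miR-20a-5p, miR-19b-3p and miR-92a-3p) and 4 of miR-106b-25 (miR-106b-5p, miR-106b-3p, miR-93-5p and miR-25-3p). They are 10 of the 1907 mature miRNAs in the count table, of which 368 passed a filter on low counts, all 10 members among them. Small RNA was sequenced from plasma of 13 male mice, 1 library per mouse: 3 naive wt mice (C57BL/10J), 3 naive mdx mice, 4 mdx mice gavaged with vehicle (0.5% methylcellulose) and 3 mdx mice gavaged with 37.5 mg/kg Givinostat, an inhibitor of histone deacetylases, 5 days a week for 15 weeks. The mdx mice (C57BL/10ScSn-Dmdmdx/J, though the strain label reads C57BL/10J for every sample) carry a mutation that stops dystrophin from being made, are used as a model of Duchenne muscular dystrophy, and were bought, like the wt mice, at 7 to 8 weeks of age. Plasma of all 13 mice was taken at the same time point, after the 15 weeks of treatment. Naive mice received no treatment but went through the functional tests of strength and running. A vehicle group of wt mice is thus missing from the comparisons with wt.

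Both clusters are known for driving cell division and for blocking cell death in blood precursors and tumours. A mature miRNA recognises its target messenger RNAs mainly through its seed, bases 2 to 8, and members that share a seed share most of their predicted targets. The seed of miR-17-5p is known for repressing the cell cycle inhibitor Cdkn1a and the receptor Tgfbr2, and that of miR-25 and miR-92a for repressing the death factor Bcl2l11. In plasma, such miRNAs reach the blood from many cells, among them red cells, platelets and leukocytes.

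The mature sequences are shown by seed, since the seed and a few bases elsewhere are what separate the members. They were taken from RefSeq on GRCm38.p6, run 5′ to 3′, and have the seed in capitals. The seed AAAGUGC is shared by 4 members from both clusters, with mmu-miR-106a-5p and mmu-miR-20b-5p of the paralogous miR-106a-363 cluster as their near copies.
mmu-miR-17-5p: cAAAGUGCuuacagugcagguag
mmu-miR-20a-5p: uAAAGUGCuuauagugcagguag
mmu-miR-106b-5p: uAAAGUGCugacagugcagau
mmu-miR-93-5p: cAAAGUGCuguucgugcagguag
mmu-miR-106a-5p: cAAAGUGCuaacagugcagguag
mmu-miR-20b-5p: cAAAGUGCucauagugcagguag
The next seed, AUUGCAC, is that of the most abundant member of each cluster, and mmu-miR-92b-3p, mmu-miR-32-5p and mmu-miR-363-3p carry it too.
mmu-miR-92a-3p: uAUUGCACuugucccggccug
mmu-miR-25-3p: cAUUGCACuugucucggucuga
mmu-miR-92b-3p: uAUUGCACucgucccggccucc
mmu-miR-32-5p: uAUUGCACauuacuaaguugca
mmu-miR-363-3p: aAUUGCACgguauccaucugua
The other 4 members hold 3 seeds: GUGCAAA in both miR-19 members, AAGGUGC in miR-18a-5p and CGCACUG in miR-106b-3p.
mmu-miR-19a-3p: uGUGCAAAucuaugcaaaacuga
mmu-miR-19b-3p: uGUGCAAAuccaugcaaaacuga
mmu-miR-18a-5p: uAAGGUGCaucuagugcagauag
mmu-miR-106b-3p: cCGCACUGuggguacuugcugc

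Several of these miRNAs differ by so little that their reads are separated by 1 to 3 bases. Counted from the 5′ end, miR-19a-3p and miR-19b-3p differ at 1 position (U11C), miR-17-5p and miR-20a-5p at 2 (C1U and C12U), and miR-17-5p and miR-106a-5p at 1 (U10A). Reads of up to 25 nucleotides were mapped with no mismatch, so such pairs stay apart only where a read covers the position that differs. miR-19b-3p and miR-92a-3p are each encoded at a second locus with the same mature sequence, in the miR-106a-363 cluster on chromosome X (chrX:52741697-52742563), and their counts cannot be assigned to 1 of the 2 loci.

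On GRCm38 the mature miRNAs of miR-17-92 lie at chr14:115043684-115044496 on the plus strand, within 813 bases, and all 6 hairpins fall in exon 2 of 2 of the non-coding host gene Mir17hg. Those of miR-106b-25 lie at chr5:138165332-138165807 on the minus strand, within 476 bases, in intron 13 of the 15-exon transcript Mcm7-201 of Mcm7, a subunit of the helicase that opens DNA for replication. The hairpins of miR-93 and miR-25 also fall in an exon of a second transcript of that gene, Mcm7-202. Host transcripts were not measured in these small RNA libraries.

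Total counts ran from 1167161 to 2899315 per library, with the 3 naive wt libraries at 1446195, 2093376 and 2899315, where 3 counts, the upper limit for a miRNA with 0 reads, are worth 1.03 to 2.57 CPM by counting error only. Levels are given as CPM, the count scaled to a common library size by TMM, a method that assumes that most miRNAs do not differ between libraries. The scaling matters here: miR-122-5p and miR-122-3p, made by hepatocytes, summed to 306475 to 881439 CPM in naive wt mice and to 10026 to 188593 CPM in mdx mice, and the 5 skeletal muscle miRNAs to 9589 to 17487 CPM in naive wt mice and to 207093 to 534475 CPM in mdx mice. TMM factors were 0.733 to 1.227 in the naive wt libraries and 0.854 to 1.369 in the mdx libraries. In plasma, fewer cells of a type and less RNA per cell cannot be told apart.

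Together the 10 members took 0.990% to 2.59% of all counts. Their levels were far apart, since miR-25-3p and miR-92a-3p held 87.6% to 93.8% of the members' counts in every library. The members are 21 to 23 bases long, so that CPM can be set side by side without a correction for length, although how well each sequence is ligated in library preparation was not measured. By median over the 13 mice the order was miR-25-3p (6735 CPM), miR-92a-3p (5178 CPM), miR-93-5p (418 CPM), miR-106b-3p (371 CPM), miR-20a-5p (149.7 CPM), miR-17-5p (125 CPM), miR-19b-3p (46.2 CPM), miR-106b-5p (30.2 CPM), miR-19a-3p (10.1 CPM) and miR-18a-5p (6.59 CPM). Neighbours in this order traded places in some mice: miR-25-3p was above miR-92a-3p in 12 of 13 mice, miR-93-5p above miR-106b-3p in 9, miR-19b-3p above miR-106b-5p in 11 and miR-19a-3p above miR-18a-5p in 10. The other 5 steps held in all 13 mice. At the bottom of the order counting error is large, since miR-18a-5p rested on 3 to 17 reads and miR-19a-3p on 6 to 33 reads per library.

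The members with the AAAGUGC seed are described first. Values follow the animal numbers in the titles (naive wt 86, 89 and 95, naive mdx 36, 37 and 39, vehicle 40, 41, 42 and 43, and Givinostat 31, 34 and 35). miR-17-5p, which gives the first cluster its name, stood at 181, 206 and 206 CPM in the naive wt mice, at 125, 80.6 and 142 CPM in the naive mdx mice, at 125, 189, 104 and 71.1 CPM with vehicle and at 132, 123 and 115 CPM with Givinostat. All 3 naive mdx mice and all 3 Givinostat mice lay below the lowest naive wt mouse, while vehicle mouse 41 lay inside the wt range. miR-20a-5p, its near copy from the same precursor, stood at 210.3, 271 and 280.4 CPM in the naive wt mice, at 149.7, 116 and 184 CPM in the naive mdx mice, at 139, 227, 139 and 83.3 CPM with vehicle and at 184, 143 and 149 CPM with Givinostat. The same vehicle mouse was again the highest mdx mouse and the only one of the 4 vehicle mice within the wt range.

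miR-93-5p, which shares this seed but comes from the Mcm7 intron, stood at 571, 596 and 592 CPM in the naive wt mice, at 420.3, 297 and 402 CPM in the naive mdx mice, at 431, 517, 345 and 298 CPM with vehicle and at 418, 393 and 371 CPM with Givinostat. Under TMM the 3 wt mice were close to each other, and each of the 10 mdx mice lay below them. With library totals the naive wt mice stood at 430 to 731 CPM and overlapped with every mdx group. Those groups reached up to 575 CPM (naive mdx), 548 CPM (vehicle) and 488 CPM (Givinostat). miR-106b-5p, the first hairpin of that intron, stood at 50.7, 55.3 and 40.5 CPM in the naive wt mice, at 41.3, 19.1 and 32 CPM in the naive mdx mice, at 26.5, 30.2, 23.9 and 16 CPM with vehicle and at 34, 29 and 26.5 CPM with Givinostat. All 4 vehicle mice and all 3 Givinostat mice were under the wt range, and naive mdx mouse 36 was just inside it. In summed levels the 4 members of this seed reached 1013 to 1128 CPM in the naive wt group, 513 to 760.0 CPM in the naive mdx group, 468 to 963 CPM in vehicle mice and 661 to 768 CPM in Givinostat mice, so that under TMM none of the 10 mdx mice reached the lowest wt mouse. As a share of all counts the groups overlapped. The sum took 0.0764% to 0.138% in naive wt and 0.0482% to 0.101% in naive mdx mice. It took 0.052% to 0.102% in vehicle and 0.0578% to 0.0896% in Givinostat mice.

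The members of the AUUGCAC seed carry most of the counts and behaved less alike. miR-25-3p stood at 10897, 7940.2 and 8593 CPM in the naive wt mice, at 7070.3, 6040.2 and 6710.3 CPM in the naive mdx mice, at 6197, 6298, 6419.8 and 6735 CPM with vehicle and at 7528, 7185 and 6275 CPM with Givinostat. Here, under TMM, each of the 10 mdx mice lay below the lowest wt mouse, and the 4 vehicle mice were close to each other. By library totals the naive wt mice stood at 6300 to 9733 CPM. The mdx groups then reached up to 9671 CPM (naive mdx), 7485 CPM (vehicle) and 8780 CPM (Givinostat), so that each overlapped with wt. miR-92a-3p, its counterpart in the miR-17-92 cluster, stood at 8399, 6066 and 5178 CPM in the naive wt mice, at 10674, 3924 and 5128 CPM in the naive mdx mice, at 5807, 3712, 4162 and 5912 CPM with vehicle and at 5184, 3894 and 4733 CPM with Givinostat. Naive mdx mouse 36 had the highest level of all 13 mice while the other two naive mdx mice lay below the lowest wt mouse, so that the groups overlapped.

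The miR-19 members and miR-18a-5p are the low end of the miR-17-92 cluster. miR-19a-3p stood at 15.2, 18.6 and 12.7 CPM in the naive wt mice, at 7.52, 5.66 and 10.9 CPM in the naive mdx mice, at 8.38, 11.8, 5.39 and 3.84 CPM with vehicle and at 10.1, 5.48 and 13.2 CPM with Givinostat. The 3 naive mdx mice and the 4 vehicle mice lay under the wt range, and Givinostat mouse 35 was inside it. miR-19b-3p, with 1 base of difference, stood at 36.1, 77.8 and 63 CPM in the naive wt mice, at 73.9, 42.4 and 46.2 CPM in the naive mdx mice, at 34.2, 47.1, 43.9 and 22.4 CPM with vehicle and at 51.9, 25.8 and 51.3 CPM with Givinostat. Naive wt mouse 86 lay below all 3 naive mdx mice here, which left the groups overlapping. miR-18a-5p stood at 10.8, 8.46 and 6.59 CPM in the naive wt mice, at 6.89, 2.12 and 7.06 CPM in the naive mdx mice, at 6.28, 5.15, 5.39 and 4.48 CPM with vehicle and at 8.35, 7.83 and 3.31 CPM with Givinostat. Naive mdx mouse 37 and Givinostat mouse 35 had 3 and 4 reads.

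miR-106b-3p is the other arm of the miR-106b hairpin, with a seed that no other member has. It stood at 536, 473 and 366 CPM in the naive wt mice, at 351, 289 and 329 CPM in the naive mdx mice, at 515, 386, 349 and 371 CPM with vehicle and at 384, 455 and 300.5 CPM with Givinostat. All 3 naive mdx mice lay below the wt range, and vehicle mouse 40 reached the upper end of it. The plot of levels by mouse shows the 10 members side by side.

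**Figure D1:**
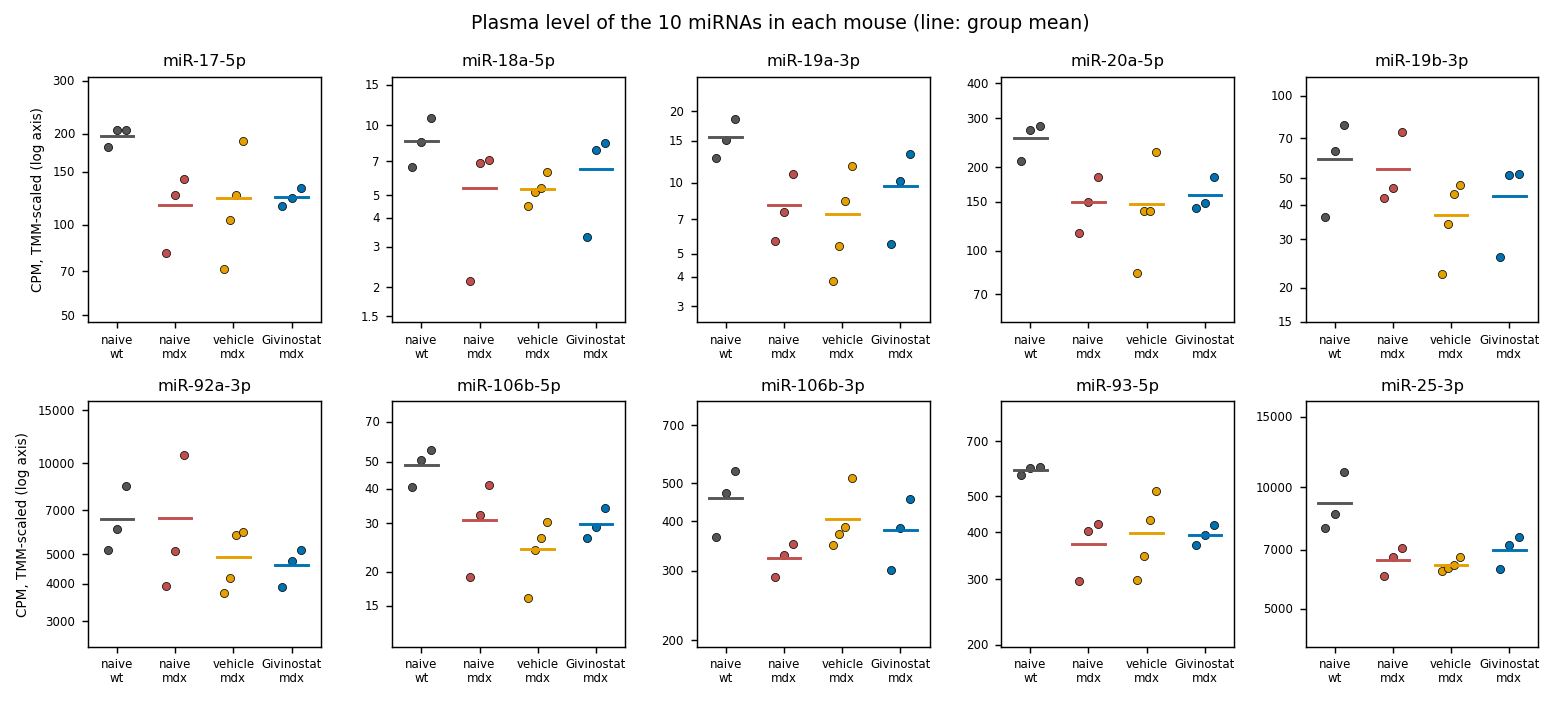
Level of each member in each of the 13 mice, in TMM-scaled CPM on a log axis that differs between panels; points are mice and lines are group means. In the panels of miR-93-5p and miR-25-3p all 10 mdx mice sit below the 3 naive wt mice, while in that of miR-92a-3p the highest point is a naive mdx mouse at 10674 CPM. With library totals in place of TMM, every mdx group overlaps with naive wt in miR-93-5p and in miR-25-3p.

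Naive mdx mice were compared with naive wt mice to ask how the members differ in the plasma of dystrophic mice. miR-93-5p fell from 586 ± 13.8 CPM (SD, n = 3) to 373 ± 66.5 CPM (SD, n = 3), with a log2 change of −0.65 (SE 0.24, adjusted p = 0.0362) by edgeR's quasi-likelihood test with Benjamini-Hochberg adjustment over the 368 miRNAs. It was the only member past an adjusted p of 0.05, which makes 1 of 10 called lower against 16.6% of all tested miRNAs called lower, and no member was called higher. The log2 fold changes of the other members were −0.77 (SE 0.31, adjusted p = 0.0564) for miR-17-5p, −0.76 (SE 0.31, adjusted p = 0.0573) for miR-20a-5p, −0.47 (SE 0.21, adjusted p = 0.0731) for miR-25-3p and −0.93 (SE 0.42, adjusted p = 0.0826) for miR-19a-3p, each with an unadjusted p under 0.05. They were −0.50 (SE 0.24, adjusted p = 0.0991) for miR-106b-3p, −0.66 (SE 0.32, adjusted p = 0.103) for miR-106b-5p and −0.64 (SE 0.44, adjusted p = 0.236) for miR-18a-5p. miR-19b-3p at −0.12 (SE 0.37, adjusted p = 0.796) and miR-92a-3p at 0.0061 (SE 0.33, adjusted p = 0.989) were near 0.

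As a list, 9 of the 10 members were below 0 in this comparison, and their median was −0.64 against 0.035 over all tested miRNAs, of which 48.4% were below 0. For 6 members, miR-17-5p, miR-19a-3p, miR-20a-5p, miR-106b-3p, miR-93-5p and miR-25-3p, the naive mdx mice lay wholly below the naive wt mice, against 27.7% of all tested miRNAs. The single call rested on few mice: no member was called without naive wt mouse 89 (40 of all 382 tested miRNAs called lower), without naive wt mouse 95 (55 of 389) or without naive mdx mouse 37 (56 of 386). Without naive wt mouse 86 (62 of 389) or naive mdx mouse 36 (56 of 382) 2 members were called, and without naive mdx mouse 39 (64 of 380) 3 were.

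The 4 vehicle mdx mice were set against the same 3 naive wt mice, so the 2 comparisons share their controls and their values are given side by side and not as independent support. Members called lower were miR-106b-5p at −1.01 (SE 0.30, adjusted p = 0.0121), miR-19a-3p at −1.07 (SE 0.40, adjusted p = 0.0352), miR-20a-5p at −0.79 (SE 0.29, adjusted p = 0.0343), miR-93-5p at −0.56 (SE 0.22, adjusted p = 0.0484) and miR-25-3p at −0.51 (SE 0.19, adjusted p = 0.036), by the same edgeR test. That is 5 of 10 against 23.1% of all tested miRNAs called lower in this comparison, and none of the 10 was called higher. miR-106b-5p went from 48.8 ± 7.58 CPM (SD, n = 3) to 24.1 ± 6 CPM (SD, n = 4), and miR-25-3p from 9143 ± 1553 CPM (SD, n = 3) to 6412 ± 233 CPM (SD, n = 4). Among the others the log2 fold changes were −0.69 (SE 0.29, adjusted p = 0.0577) for miR-17-5p, −0.68 (SE 0.35, adjusted p = 0.118) for miR-19b-3p and −0.67 (SE 0.42, adjusted p = 0.177) for miR-18a-5p. The last ones were −0.42 (SE 0.31, adjusted p = 0.251) for miR-92a-3p and −0.18 (SE 0.23, adjusted p = 0.515) for miR-106b-3p.

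All 10 members were below 0 here, with a median of −0.68 against −0.11 over all tested miRNAs, of which 51.9% were below 0. In 5 members (miR-19a-3p, miR-106b-5p, miR-93-5p, miR-25-3p and miR-18a-5p) the vehicle mice lay wholly below the naive wt mice, as in 25% of all tested miRNAs. Again single libraries moved the count. No member was called without vehicle mouse 43 (46 of all 363 tested miRNAs called lower). Only miR-106b-5p was called without naive wt mouse 89 (60 of 382) or 95 (66 of 389) or vehicle mouse 40 (51 of 365) or 42 (66 of 364). Without naive wt mouse 86 (76 of 389) 3 members were called, and without vehicle mouse 41 (81 of 364) 5 were.

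Giving Givinostat was compared with giving vehicle to ask whether 15 weeks of treatment went along with a difference in these members. By edgeR 0 of the 10 members were called and 0 had an unadjusted p under 0.05, while 0.272% of all tested miRNAs, a single one, were called in either direction. DESeq2 also called 0 of the members, and 2 of all 1203 miRNAs, both higher. The 10 log2 fold changes ran from −0.093 to 0.39, with a median of 0.12 against −0.018 over all tested miRNAs and adjusted p-values of 0.835 to 0.992. The largest was that of miR-19a-3p at 0.39 (SE 0.43, adjusted p = 0.861). For miR-25-3p, the member with the narrowest interval, the 95% interval of the difference was −0.28 to 0.53. For miR-93-5p it was −0.49 to 0.46 and for miR-18a-5p, the member with the widest, −0.62 to 1.24. Differences within these bounds were not excluded with 3 and 4 mice. No member had groups that did not overlap, against 7.61% of all tested miRNAs.

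Vehicle mice were also compared with naive mdx mice, which measures what goes along with gavage of the vehicle. None of the 10 members was called by edgeR, 0 had an unadjusted p under 0.05, DESeq2 called 0, and 0% of all tested miRNAs were called. The log2 fold changes ran from −0.56 to 0.33 with a median of −0.041, against −0.13 over all tested miRNAs, and adjusted p-values were 0.801 to 0.968. The ends of that range were miR-19b-3p at −0.56 (SE 0.35, adjusted p = 0.801) and miR-106b-3p at 0.33 (SE 0.23, adjusted p = 0.801). The groups overlapped in every member, while 2.17% of all tested miRNAs had groups apart. In the plot of fold changes the intervals of the last 2 comparisons span 0 for every member.

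**Figure D2:**
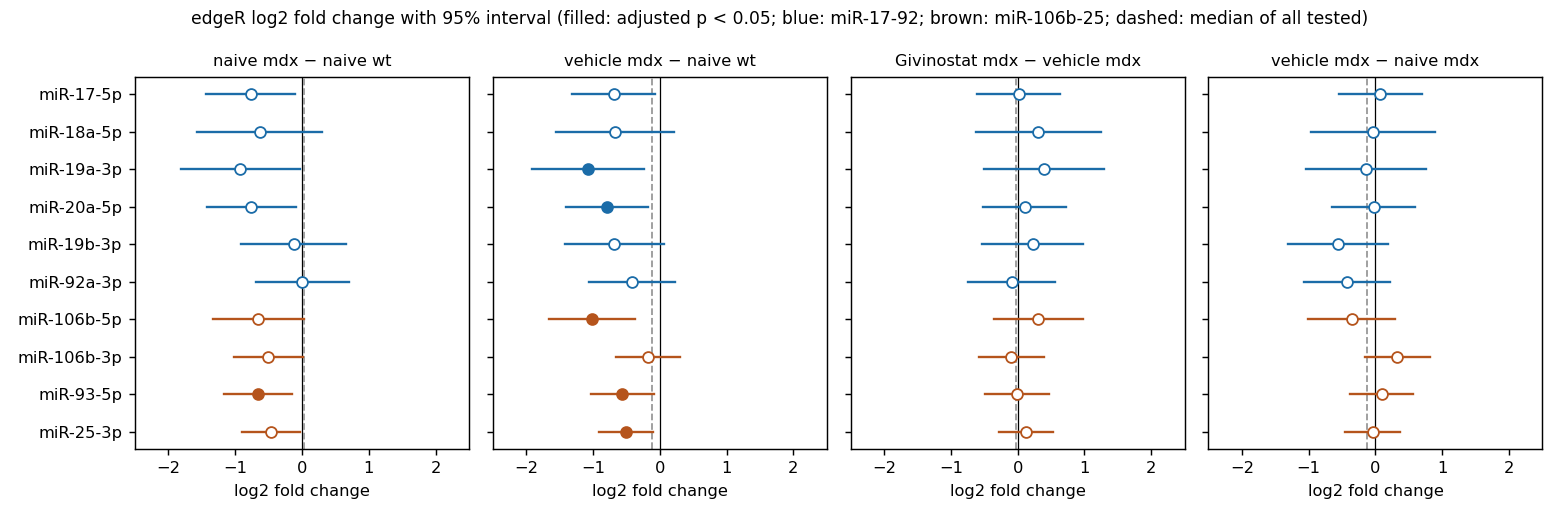
Log2 fold change of each member with its 95% interval in the 4 comparisons, from edgeR on the log2 scale; filled points have an adjusted p under 0.05, blue is miR-17-92, brown is miR-106b-25, and the dashed line is the median of all tested miRNAs. The 2 panels against naive wt have 1 and 5 filled points, all below 0, and the other 2 panels have none; under other scalings these counts were 0 to 7 and 0 to 6.

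How low the members stood against naive wt depended on the scaling, which shifts all miRNAs of a comparison by about the same amount. The counts of members whose groups did not overlap, and the shares of all tested miRNAs beside them, were taken under TMM only. With library totals the median of all tested miRNAs moved from 0.035 to 0.43 in naive mdx against naive wt, and the members' median from −0.64 to −0.24, with 8 of 10 below 0 and none called, while 23 of all 368 were called lower in place of 61. With upper-quartile factors both medians moved down, to −0.20 and −0.86, and 7 members and 96 of all 368 miRNAs were called lower. miR-92a-3p stayed close to the median of all tested miRNAs in naive mdx against naive wt, at 0.0061 under TMM and at 0.47 with library totals. When miR-122-5p and the 5 muscle miRNAs were left out of the scaling, 2 members (miR-93-5p and miR-17-5p) were called lower in naive mdx mice, with 63 of all 368, and 3 in vehicle mice, with 76 of all 368.

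**Figure D3:**
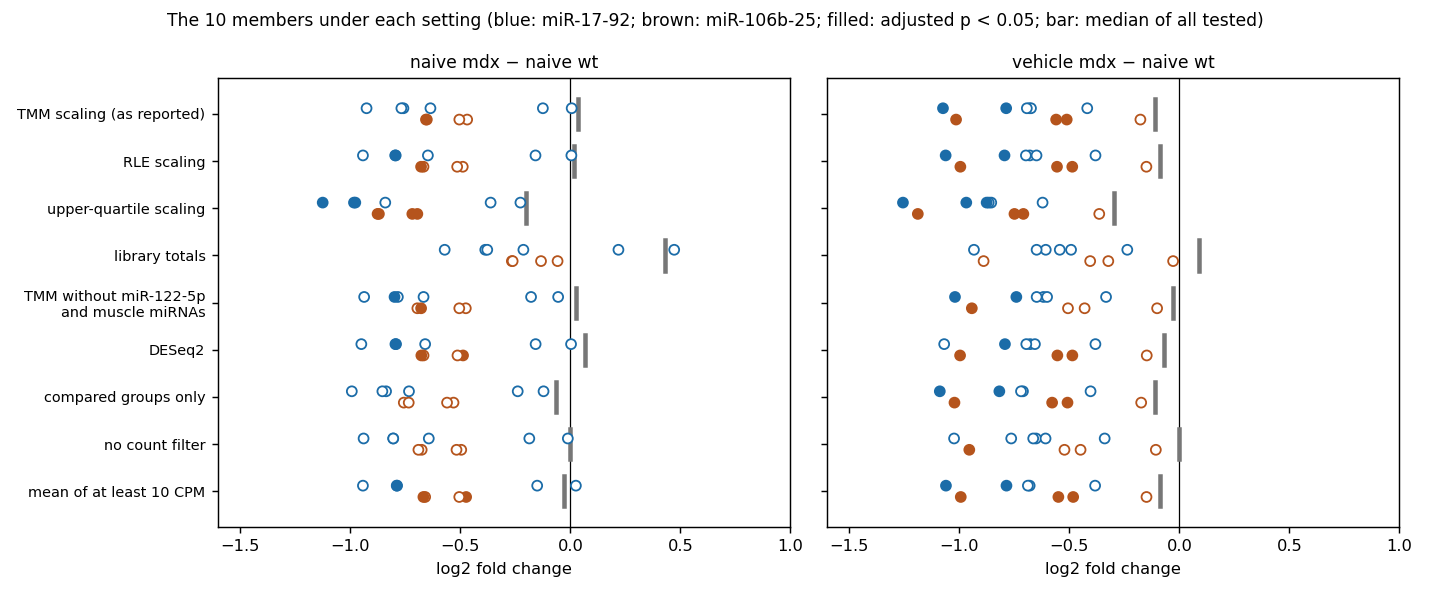
Log2 fold changes of the members against naive wt under TMM scaling and 8 other settings, 1 row each; points are members (filled where the adjusted p is under 0.05, blue for miR-17-92 and brown for miR-106b-25) and the grey bar is the median of all tested miRNAs. Points and bar shift together between rows: with library totals the bar moves to 0.43 and no point is filled, with upper-quartile factors it moves to −0.20 and 7 points are filled in the left panel.

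Ratios of raw counts within a library do not depend on scaling, and 5 of them were tested by exact permutation (two-sided) in 5 comparisons, the fifth being all 10 mdx mice of any treatment against the 3 naive wt mice (25 tests). With 3 against 3 mice no p under 0.1 is possible, with 3 against 4 none under 0.0571 and with 10 against 3 none under 0.00699. The 6 miR-17-92 members summed to 0.599 to 0.734 of the 4 miR-106b-25 members in the naive wt group, 0.628 to 1.4 in the naive mdx group, 0.58 to 0.854 in vehicle mice and 0.521 to 0.726 in Givinostat mice. On the log2 scale the difference between mdx mice of any treatment and naive wt mice was 0.085 (exact permutation p = 0.853, adjusted p = 0.857). Since miR-92a-3p and miR-25-3p held 87.6% to 93.8% of the members' counts, this ratio is mostly that of these 2 miRNAs. The difference changed sign without miR-19b-3p and miR-92a-3p and also as a mean over members, as given in the section on processing. The highest ratio was that of naive mdx mouse 36, the mouse with the highest miR-92a-3p, and without it the difference of naive mdx from naive wt went from 0.34 to −0.011.

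Ratios between single members were compared next. miR-17-5p stood at 0.733 to 0.861 of miR-20a-5p in naive wt mice and at 0.695 to 0.899 in the 10 mdx mice, and the log2 ratio was −0.35 ± 0.12 (SD, n = 3) against −0.33 ± 0.12 (SD, n = 10), a difference of 0.023 (exact permutation p = 0.783, adjusted p = 0.857). miR-92a-3p stood at 0.603 to 0.771 of miR-25-3p in naive wt mice and at 0.542 to 1.51 in mdx mice, with a log2 difference of 0.11 (exact permutation p = 0.79, adjusted p = 0.857). miR-93-5p was 0.0524 to 0.0751 of miR-25-3p in naive wt mice and 0.0442 to 0.0821 in mdx mice, with a log2 difference of −0.16 (exact permutation p = 0.357, adjusted p = 0.857).

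The ratio of the 2 arms of the miR-106b hairpin had the largest difference of the 5 ratios in every comparison but that of naive mdx with naive wt, where it was 0.23 against 0.36 for miR-92a-3p to miR-25-3p and 0.34 for the cluster sums. The hairpin is printed to show the arms, which are in capitals, miR-106b-5p before the loop and miR-106b-3p after it (GRCm38.p6, chr5:138165737-138165818, minus strand).
Mir106b: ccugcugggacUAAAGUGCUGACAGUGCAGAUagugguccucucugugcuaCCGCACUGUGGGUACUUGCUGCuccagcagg
The 3p arm had 8.56 to 10.6 reads for each read of the 5p arm in the naive wt group, 8.48 to 15.1 in the naive mdx group, 12.8 to 23.2 in vehicle mice and 11.3 to 15.7 in Givinostat mice. Each vehicle and Givinostat mouse was above the highest wt mouse, while of the naive mdx mice 1 was above, 1 within and 1 just below the wt range. On the log2 scale the mdx mice of any treatment were higher by 0.54, at 3.77 ± 0.44 (SD, n = 10) against 3.23 ± 0.16 (SD, n = 3), with an exact permutation p of 0.049 and an adjusted p of 0.714 over the 25 tests, so that the difference did not pass the correction. Vehicle mice were higher than naive wt mice by 0.86, with no overlap, at the smallest p that 4 against 3 mice allow (exact permutation p = 0.0571, adjusted p = 0.714). Givinostat mice were lower than vehicle mice, with a difference of −0.43 on the log2 scale and overlapping groups (exact permutation p = 0.171, adjusted p = 0.857). The 5p arm rested on 25 to 98 reads per library.

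**Figure D4:**
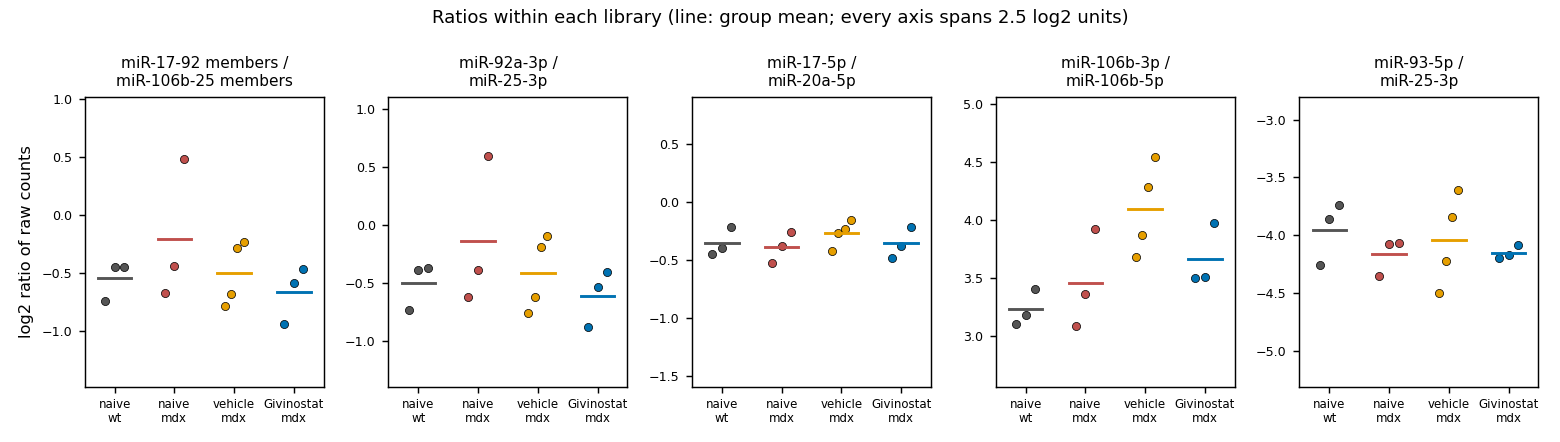
Log2 ratios of raw counts within each library for 5 pairs, 1 point per mouse and a line at each group mean; every axis spans the same range. The ratio of miR-17-5p to miR-20a-5p varies least, with all 13 mice between −0.52 and −0.15, and that of miR-106b-3p to miR-106b-5p is highest in the vehicle mice, at 3.68 to 4.54.

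The opposite arms of the other hairpins were scarce. Of 8 listed, 4 passed the filter, and their summed level together with the rest of the 8 was 48.5 to 62.7 CPM in naive wt mice and 29.8 to 119.6 CPM in mdx mice. Only miR-17-3p was called, lower in vehicle than in naive wt mice at −1.18 (SE 0.34, adjusted p = 0.00993), on 4 to 19 reads per library, and not without vehicle mouse 43 (−0.89, adjusted p = 0.053) or in DESeq2 (adjusted p = 0.087). It read 7.6, 9.03 and 8.94 CPM in the naive wt mice, 6.26, 4.95 and 6.52 CPM in the naive mdx mice, 4.19, 3.68, 4.62 and 2.56 CPM with vehicle and 6.56, 7.83 and 6.62 CPM with Givinostat. The vehicle mice were below all others in this arm, and its log2 fold change was 0.89 (SE 0.36, adjusted p = 0.596) for Givinostat against vehicle. miR-18a-3p, miR-25-5p and miR-93-3p passed no test in the 4 comparisons (adjusted p of 0.248 or more), and the arms at or near the floor were miR-19a-5p, miR-19b-1-5p, miR-20a-3p and miR-92a-1-5p, with 0 to 4 reads in every library.

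The paralogous miR-106a-363 cluster was close to the floor. Of 10 listed miRNAs 2 passed the filter, 3 had no read in any library (miR-106a-3p, miR-19b-2-5p and miR-92a-2-5p), and all 10 together summed to 10.8 to 37.2 CPM. miR-106a-5p, which differs from miR-17-5p at U10A, had 0 to 16 reads per library against 111 to 437 for miR-17-5p. Neither miR-20b-5p nor miR-363-3p was called in any of the 4 comparisons. The 5′ arms of Mir19b-2 and Mir92-2, which only the X-linked cluster encodes, were among the 3 with no read, and those that only miR-17-92 encodes had 0 to 1 (miR-19b-1-5p) and 0 to 2 reads (miR-92a-1-5p), too few to say from which locus miR-19b-3p and miR-92a-3p came.

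miR-32-5p and miR-92b-3p, which carry the seed of miR-25-3p and miR-92a-3p and each come from a locus of their own, had log2 fold changes against naive wt further below 0 than any member, a gap that was not tested. For miR-92b-3p in naive mdx mice the gap was small. It stood at −0.98 (SE 0.49, edgeR adjusted p = 0.109), not called and with overlapping groups, next to miR-19a-3p at −0.93 (SE 0.42). miR-32-5p was called lower in naive mdx mice at −1.23 (SE 0.45, adjusted p = 0.0339) and in vehicle mice at −1.88 (SE 0.43, adjusted p = 0.00198), both against naive wt. It stood at 24.1, 34.4 and 23.5 CPM in the naive wt mice, at 5.64, 12 and 16.8 CPM in the naive mdx mice, at 3.49, 14, 7.69 and 4.48 CPM with vehicle and at 14.3, 14.1 and 9.11 CPM with Givinostat. Under TMM each of the 10 mdx mice was below the lowest wt mouse. By library totals naive mdx mouse 39 (19.9 CPM) was above naive wt mice 86 (18.2 CPM) and 95 (17.2 CPM). miR-92b-3p was called lower in vehicle than in naive wt mice at −1.31 (SE 0.46, adjusted p = 0.0276), and with Givinostat it was the single miRNA of the 368 called against vehicle, higher at 2.35 (SE 0.46, adjusted p = 0.0374). Its levels were 47.5, 106.05 and 46.6 CPM in naive wt, 58.3, 21.2 and 21.7 CPM in naive mdx, 29.3, 27.9, 27.7 and 22.4 CPM in vehicle and 57.9, 238 and 115 CPM in Givinostat mice. All 3 Givinostat mice lay above all 4 vehicle mice, over which miR-92a-3p (−0.089) and miR-25-3p (0.13), with the same seed, had no call. The call of miR-92b-3p against vehicle was lost without Givinostat mouse 34, at 1.69 (edgeR adjusted p = 0.589), without Givinostat mouse 35, at 2.38 (adjusted p = 0.0688), without any 1 of the 4 vehicle mice, at 2.25 to 2.36 (adjusted p of 0.117 to 0.166), with a mean of at least 10 CPM (adjusted p = 0.0558) and with miR-451a over miR-23a-3p as a covariate (adjusted p = 0.877). Its call against naive wt was lost without naive wt mouse 89, at −0.78 (adjusted p = 0.202), and without any 1 of the vehicle mice, and that of miR-32-5p in naive mdx mice without naive wt mouse 89 or 95 or naive mdx mouse 36 or 37 (−1.31 to −0.87, adjusted p of 0.056 to 0.117).

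Markers of blood and vessel cells were set beside the members, since they share the plasma with them. All 3 red blood cell miRNAs were called lower in naive mdx than in naive wt mice: miR-451a at −1.17 (SE 0.24, adjusted p = 0.00106), miR-144-3p at −1.72 (SE 0.39, adjusted p = 0.00209) and miR-144-5p at −2.20 (SE 0.50, adjusted p = 0.00209). All 3 were also called lower in vehicle than in naive wt mice, and with Givinostat against vehicle none was called, miR-451a standing at 0.76 (SE 0.22, adjusted p = 0.255). Their sum was 5080 to 6327 CPM in naive wt, 2266 to 2974 CPM in naive mdx, 2395 to 3413 CPM in vehicle and 3448 to 5662 CPM in Givinostat mice, and none of the 3 was at 0 in any library. The red cell miRNAs were thus lower in both comparisons against naive wt, as most members were. miR-92a-3p (0.0061) and miR-19b-3p (−0.12) were near 0 in naive mdx mice. The part of the red cell miRNAs in the members' lower levels was not tested.

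Divided by miR-451a within each library, all 10 members were higher in naive mdx than in naive wt mice, by a median of 0.48 on the log2 scale (0.18 to 1.07). In vehicle against naive wt mice 8 were higher and 2 lower (median 0.33, −0.19 to 0.82). In vehicle against naive mdx mice 8 were lower and 2 higher (median −0.24). All 10 were lower with Givinostat than with vehicle, by a median of −0.58. Divided by miR-23a-3p, used as a reference from other cells, all 10 were lower in naive mdx than in naive wt mice by a median of −1.74 (−2.03 to −1.14). In vehicle mice all 10 were lower than in naive wt mice (median −1.58), while 4 were lower and 6 higher than in naive mdx mice. All 10 were higher with Givinostat than with vehicle by a median of 0.29 (0.041 to 0.56). miR-23a-3p itself rose in naive mdx mice, at 1.04 (SE 0.23, adjusted p = 0.0016). These divisions were chosen after the data were seen and carry no test. Where all 10 fell on the same side, this followed from the reference. In naive mdx against naive wt mice miR-451a (−1.17) lay below and miR-23a-3p (1.04) above every member (−0.93 to 0.0061). With Givinostat against vehicle miR-451a (0.76) lay above and miR-23a-3p (−0.14) below every member (−0.093 to 0.39). These counts are thus not a result about the members. Between these references, miR-451a over miR-23a-3p on the log2 scale was −0.11 to 0.11 in naive wt and −2.68 to −0.69 in mdx mice, so that genotype and this ratio cannot be told apart, and with it as a covariate no member was called in any comparison. The covariate took the calls of nearly all miRNAs, leaving 1 of 368 in naive mdx and 2 of 368 in vehicle mice against naive wt, each higher, and 0 in the other 2 comparisons.

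Among 4 myeloid and platelet miRNAs, 1 (miR-142a-3p) was called lower in naive mdx and 3 in vehicle mice against naive wt, with sums of 5201 to 6367 CPM in naive wt, 3718 to 4266 CPM in naive mdx, 3008 to 4071 CPM in vehicle and 3450.2 to 5099.6 CPM in Givinostat mice. Of 2 endothelial miRNAs, miR-126a-3p was called lower in naive mdx mice at −1.07 (SE 0.36, adjusted p = 0.0254) and neither in vehicle mice. In naive mdx mice the calls of miR-142a-3p and miR-126a-3p were lost without naive wt mouse 89 or naive mdx mouse 36 or 37, and that of miR-142a-3p also without naive wt mouse 95. Neither of 2 lymphocyte miRNAs was called, and their sum was highest, at 3816 CPM, in naive mdx mouse 36, which also had the most miR-92a-3p. None of these markers was at 0 in every library, and their part in the members' values was not tested.

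**Figure D5:**
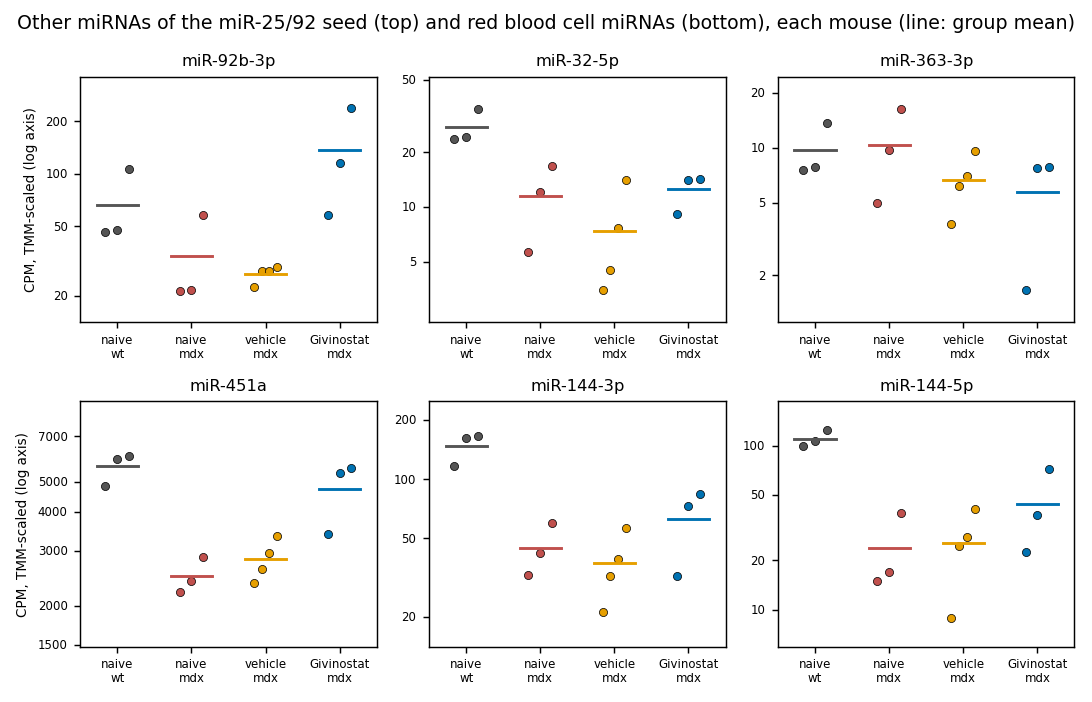
Level of 3 further miRNAs with the miR-25/92 seed (top) and of 3 red blood cell miRNAs (bottom) in each mouse, in TMM-scaled CPM on log axes that differ between panels; lines are group means. For miR-92b-3p the 3 Givinostat mice (57.9 to 238 CPM) sit above the 4 vehicle mice (22.4 to 29.3 CPM), and for miR-451a all 10 mdx mice but 2 on Givinostat sit below the 3 naive wt mice.

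The miRNAs whose profile over the 13 libraries was nearest to each cluster's mean profile were found by the root mean square difference of log2 CPM centred on each miRNA's mean. For miR-17-92 these were miR-338-5p (0.212), let-7d-5p (0.228), miR-142a-5p (0.238), miR-16-5p (0.24) and miR-433-3p (0.247), against a median of 0.612 over all non-members. For miR-106b-25 they were let-7d-5p (0.179), miR-181d-5p (0.181), miR-16-5p (0.192), miR-421-3p (0.219) and miR-142a-5p (0.237), against a median of 0.575. The miRNAs of the red cell list were further off than these nearest ones, and other miRNAs of red cells were not looked up. From the miR-17-92 profile miR-451a lay at 0.414 (rank 57 among non-members, nearest first), miR-144-3p at 0.611 (rank 178) and miR-144-5p at 0.809 (rank 256). From the miR-106b-25 profile they lay at 0.346 (rank 40), 0.633 (rank 212) and 0.853 (rank 273). From both profiles miR-451a was thus nearer than the median non-member. Whether the members follow red cell miRNAs was not tested. On the same scale the miR-106b-25 members lay at 0.145 (miR-93-5p), 0.153 (miR-106b-5p), 0.283 (miR-25-3p) and 0.359 (miR-106b-3p) from the miR-17-92 profile, and the miR-17-92 members at 0.188 (miR-17-5p) to 0.416 (miR-92a-3p) from that profile of their own. From the miR-106b-25 profile its own members lay at 0.120 (miR-93-5p) to 0.231 (miR-106b-5p), and the miR-17-92 members at 0.252 (miR-17-5p) to 0.464 (miR-19b-3p). All libraries enter each profile, so these distances share their depth and scaling. Each member also enters the mean profile of its own cluster, which shortens its distance to that profile. Distances of a cluster's own members therefore cannot be set against those of other miRNAs.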

How the data were processed

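Small RNA libraries (NEBNext kit, size selected) were made from plasma RNA of 13 mice. The authors trimmed adapters (the paper names Trimmomatic, the submitters' processing notes cutadapt 1.4.2 and bcl2fastq 1.37.0), mapped reads to GRCm38 with Bowtie 1.0.0 and annotated them with miRBase release 21. The deposited table holds a raw count per mature miRNA, summed over its isomiRs. A second deposited table of scaled log2 values was not used. Groups came from the titles, and all 13 columns matched by name. All 15 pairs of libraries within groups differed (lowest chi-square over degrees of freedom, 104.5).

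Counts were scaled by TMM, filtered with filterByExpr (minimum count 10) and fitted over all 13 libraries with 1 mean per group by edgeR 4.0.16 (glmQLFit, legacy = FALSE, and glmQLFTest) in R 4.3.3. A call needed a p under 0.05 after Benjamini-Hochberg adjustment over 368 tested miRNAs, and the code was tested on simulated data. Ratios were compared by exact permutation tests (scipy 1.17.1). Alternatives were other scalings and filters, DESeq2 1.42.0, the compared groups only, a covariate and leaving out each library. Named miRNAs were all members, the related and marker lists and the 5 nearest profiles per cluster. The members, lists and tests were chosen with earlier results of these data known. The labels tie each library to 1 mouse, with no batch given.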

Additional observations from a re-analysis of the deposited data

How the results depend on the processing

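No paired analysis was possible because the groups share no animal numbers. Each cause of a changed value was not tested. Members called in naive mdx against naive wt (1 under TMM, with 61 of all 368 miRNAs called lower) numbered 3 with RLE scaling (73 lower), 7 with upper-quartile scaling (96), 0 with library totals (23), 2 with scaling without miR-122-5p and muscle miRNAs (63), 0 without a count filter (68 of 1203), 3 with a mean of at least 10 CPM (70 of 313), 3 in DESeq2 (68 of 573), 0 with the covariate (0), 0 with the compared groups only (53 of 341) and 0 to 3 with a library left out (40 to 64). In vehicle against naive wt (5 under TMM, with 85 lower) they numbered 0 with library totals (44), 3 with scaling without those miRNAs (76), 1 without a filter (72 of 1203), 0 with the covariate (0), 0 to 5 with a library left out (46 to 81), and 4 to 6 in the rest (79 to 109). Over all miRNAs, library totals gave 118 higher and 23 lower in naive mdx against naive wt in place of 99 and 61. miR-18a-5p failed the filter of 10 CPM, and in every comparison but that of naive mdx with naive wt also that of the compared groups only.

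With the covariate, log2 fold changes turned positive in naive mdx and in vehicle against naive wt for miR-17-5p (1.05 and 0.87), miR-18a-5p (2.38 and 2.03), miR-20a-5p (0.86 and 0.60), miR-106b-5p (0.87 and 0.31), miR-106b-3p (0.37 and 0.57) and miR-93-5p (0.51 and 0.44), and for miR-19b-3p in naive mdx mice (0.090), with adjusted p of 0.615 or more. In naive mdx mice miR-19b-3p was at 0.22 with library totals, and miR-92a-3p at −0.23 with upper-quartile scaling, −0.055 with scaling without miR-122-5p and muscle miRNAs, −0.011 without a filter and −0.12 with the compared groups only. With a library left out miR-19b-3p ran from −0.42 to 0.099 and miR-92a-3p from −0.49 to 0.27 there, and miR-106b-3p from −0.26 to 0.0074 in vehicle against naive wt. In Givinostat against vehicle 8 members and in vehicle against naive mdx 7 members changed sign under at least 1 setting, and none was called under any.

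The log2 ratio of the miR-17-92 to the miR-106b-25 members changed sign as a mean over members and without miR-19b-3p and miR-92a-3p: to −0.017 and −0.32 in naive mdx against naive wt, to −0.19 and −0.35 in vehicle against naive wt, to 0.078 and 0.056 in Givinostat against vehicle, and to −0.11 and −0.32 in all mdx against naive wt. With a library left out it ran from −0.011 to 0.57 in naive mdx against naive wt, −0.048 to 0.15 in vehicle against naive wt, −0.52 to 0.061 in vehicle against naive mdx and −0.020 to 0.14 in all mdx against naive wt. In the same 4 comparisons the ratio of miR-92a-3p to miR-25-3p ran from −0.0068 to 0.60, −0.035 to 0.20, −0.52 to 0.088 and −0.0094 to 0.17. That of miR-17-5p to miR-20a-5p ran from −0.098 to 0.036 in naive mdx and −0.024 to 0.092 in all mdx against naive wt. That of miR-106b-3p to miR-106b-5p ran from −0.0032 to 0.41 in naive mdx and 0.46 to 0.63 in all mdx against naive wt, the latter 0.53 (exact permutation p = 0.0629) with a pseudocount of 0.5. That of miR-93-5p to miR-25-3p ran from −0.25 to 0.060 in vehicle against naive wt, −0.26 to 0.040 in Givinostat against vehicle and −0.028 to 0.27 in vehicle against naive mdx.

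With 3 to 33 reads per library for miR-18a-5p and miR-19a-3p, counting error makes up part of the spread of this pair, and each group held 3 or 4 mice.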
